A study of Mus musculus with 4 samples.

Results

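The collagen, laminin and integrin genes of the mouse were examined for binding of OTX2, a homeodomain transcription factor, in cells on the way from epiblast to definitive endoderm (DE). The genes were taken by symbol: every protein-coding gene of the RefSeq annotation of GRCm38 (mm10) named Col, Lam or Itg with the numbering of a collagen chain, a laminin chain or a numbered integrin subunit. This gave 74 of the 21887 protein-coding genes on chromosomes, 44 collagens, 11 laminins and 19 integrins. Integrin subunits named with a further letter, such as Itgav, fall outside this naming. Binding had been mapped by CUT&RUN, in which an antibody brings a nuclease to a protein on chromatin and the released DNA is sequenced, on 500000 cells per sample. The 4 libraries are from primitive streak (PS) cells of a BL6/129 hybrid background whose OTX2 is edited (OTX2-dTAG-EGFP) and carries an HA tag. The 3 anti-HA libraries come from the lines 7H, 7H1 and 7H2, and the 1 IgG control library from line 7H2. The starting epiblast stem cells (EpiSCs) grow with FGF2 at 12.5 ng/ml, NVP at 175 nM and Activin A at 20 ng/ml. PS cells had 16 h of Activin A at 40 ng/ml with CHIR, which activates WNT signalling, at 3 uM. DE cells then had 24 h of Activin A at 100 ng/ml with LDN, which blocks BMP receptors, at 100 nM.

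The values are 4 lists of regions, named for the stages in which they were bound: PS only (1634 regions), PS and DE (6157), DE only (31445) and EPI and PS (379). The list names do not spell out EPI. No list is named for EPI alone, for EPI and DE, or for all stages together. Regions bound in those combinations could not appear here, so 0 regions means 0 in these 4 lists and not absence of binding. All 4 libraries described above are of PS cells, libraries of DE or EPI cells were not analysed here, and the sources used here do not say from which libraries the DE and EPI part of each list was made. The lists hold positions and no height or value per library, so depth is unknown, no spread between the 3 lines can be given, and no comparison with IgG was possible. They hold no expression value either, so the stage of the cells could not be checked against markers. Regions and genes are not replicates of a condition, and no p-value is given below. Each region went to the gene in whose span its midpoint lay. Where there was none, it went to whichever protein-coding gene ended closest, up to 100 kb away. This placed 199 of the 34616 assigned regions (39615 in all) at collagen, laminin and integrin genes. In 0 of the 199 cases did the midpoint lie in the spans of more than 1 gene, while for 18 of the 77 regions outside a span another gene's end lay less than 2 times as far away.

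Collagens and laminins build the extracellular matrix, and integrins are the cell-surface receptors that hold cells to it. Laminin is a trimer of an alpha, a beta and a gamma chain, and together with the collagen IV network it forms the basement membrane, the sheet on which epithelia such as the epiblast and the endoderm rest. Each integrin pairs an alpha with a beta subunit, and the pair sets which matrix protein is bound. During gastrulation, cells of the streak leave the epiblast through a breached basement membrane, and endoderm cells become part of an epithelium again.

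Region positions overlapped the promoter of 7 of these genes, and 4 of them are shown here, as genes described by name further below whose start, or the bases just before it, a region covers. A region also crosses the start of Lamb3, whose window is not printed. RefSeq promoter windows on GRCm38.p6, from 250 bases before to 50 after a start, were matched for 54 of the 74 genes (60 windows). A region of any list overlapped 7 of the 60 windows, or 11.7%, against 12.2% of the 32851 windows of all genes in that table. Those windows are of 27025 genes, a wider set than the 21887 protein-coding genes compared elsewhere. Of the 7, the Lamb1, Lama5, Lamb3, Col11a1, Col13a1 and Col25a1 windows were met by a DE only region and the Itgb8 window by the EPI and PS region. The 250 bases before the start are printed on the gene's own strand, with the bases that lie in an OTX2 region in capitals. They are, on GRCm38.p6, chr12:31265043-31265292 (plus strand) for Lamb1, chr2:180225860-180226109 (minus) for Lama5, chr10:61979109-61979358 (minus) for Col13a1 and chr12:119238277-119238526 (minus) for Itgb8.
Lamb1: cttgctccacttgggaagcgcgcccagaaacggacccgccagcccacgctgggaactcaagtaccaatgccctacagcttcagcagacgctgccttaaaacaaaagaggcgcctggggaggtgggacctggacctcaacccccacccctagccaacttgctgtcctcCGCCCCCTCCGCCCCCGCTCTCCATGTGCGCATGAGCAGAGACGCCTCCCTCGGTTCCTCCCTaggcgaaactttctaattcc
Lama5: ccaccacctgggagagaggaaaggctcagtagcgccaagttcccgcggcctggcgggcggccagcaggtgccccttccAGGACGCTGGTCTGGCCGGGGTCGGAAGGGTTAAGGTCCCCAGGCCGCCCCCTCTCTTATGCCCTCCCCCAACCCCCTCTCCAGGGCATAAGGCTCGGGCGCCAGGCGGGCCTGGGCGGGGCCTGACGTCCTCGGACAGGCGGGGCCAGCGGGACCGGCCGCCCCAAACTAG
Col13a1: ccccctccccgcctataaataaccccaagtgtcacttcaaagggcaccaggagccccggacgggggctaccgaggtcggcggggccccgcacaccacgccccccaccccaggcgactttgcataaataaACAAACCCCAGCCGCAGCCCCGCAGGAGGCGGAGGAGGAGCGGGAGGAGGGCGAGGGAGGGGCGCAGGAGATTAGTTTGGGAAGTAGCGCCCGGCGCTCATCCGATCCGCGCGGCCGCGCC
Itgb8: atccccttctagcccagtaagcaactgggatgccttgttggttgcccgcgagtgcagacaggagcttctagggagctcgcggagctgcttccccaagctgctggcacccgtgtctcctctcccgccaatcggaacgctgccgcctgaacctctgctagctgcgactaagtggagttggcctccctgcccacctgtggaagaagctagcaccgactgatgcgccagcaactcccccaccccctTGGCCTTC
The Lamb1 region of 63 bp lay wholly before the listed start. Of the Lama5 region, 172 of 198 bases lay in the stretch shown, and of the Col13a1 region 121 of 126, so both ran across the start. The Itgb8 region covered the last 8 bases shown and then ran past the start into the gene, for 146 bp in all.

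The 6-base core recognised by OTX2 and related homeodomain proteins, TAATCC, was searched on both strands (GGATTA on the other), and so were TGTTTAC of forkhead factors and AGATAA of GATA factors. None of the 3 was found in the 7 windows that a region overlapped. Over the 60 windows of collagen, laminin and integrin genes, TAATCC was in 1 (1.67%), TGTTTAC in 1 (1.67%) and AGATAA in 2 (3.33%). Over all 32851 windows, of the wider set of genes given above, the shares were 7.06%, 3.65% and 11.2%. The windows of these genes were also richer in G and C, with a median of 59.3% against 52.7% over all windows, and the part of that difference in the motif shares was not tested. The motifs were searched in promoter windows alone, because the sequence of regions elsewhere was not used here.

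Most regions at these genes were DE only, in a share close to that over all genes: 162 of 199 (81.4%, 95% Wilson interval 75.4 to 86.2), against 79.4% of all assigned regions. At least 1 DE only region was assigned to 55 of the 74 genes (74.3%, 95% Wilson interval 63.3 to 82.9), where 50.1% of all protein-coding genes had one. PS and DE regions were assigned to 19 genes (25.7%, 17.1 to 36.7), against 16.3% of all genes. PS only regions were assigned to 6 genes (8.11%, 3.77 to 16.6), against 5.60%, and the single EPI and PS region to 1 gene (1.35%, 0.239 to 7.27), against 1.45%. With the lists joined, 57 of the 74 genes had a region, against 54.7% of all genes. The median over these genes was 2 DE only regions, and 1 over all genes. The other regions at the 74 genes were 29 PS and DE, 7 PS only and 1 EPI and PS.

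These are long genes, and per Mb they held slightly fewer regions than all genes together, within counting error. Their median span was 102.3 kb against 17.2 kb over all genes, and the sequence that the assignment rule gives to a gene, called its territory here, had a median of 152 kb against 45.1 kb. The 74 territories added up to 12.3 Mb, 0.644% of all territory. Of the DE only regions assigned to any gene, 0.590% fell in them (95% Wilson interval from 0.506 to 0.687). The share was 0.539% for PS and DE (from 0.375 to 0.773), 0.491% for PS only (from 0.238 to 1.01) and 0.299% for EPI and PS (from 0.0527 to 1.67). Per Mb of territory that was 13.2 DE only regions against 14.4 over all genes, 2.36 PS and DE regions against 2.82, and 0.569 PS only regions against 0.747. The Wilson intervals of all 4 shares include the share of territory. They cover counting error only.

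**Figure D1:**
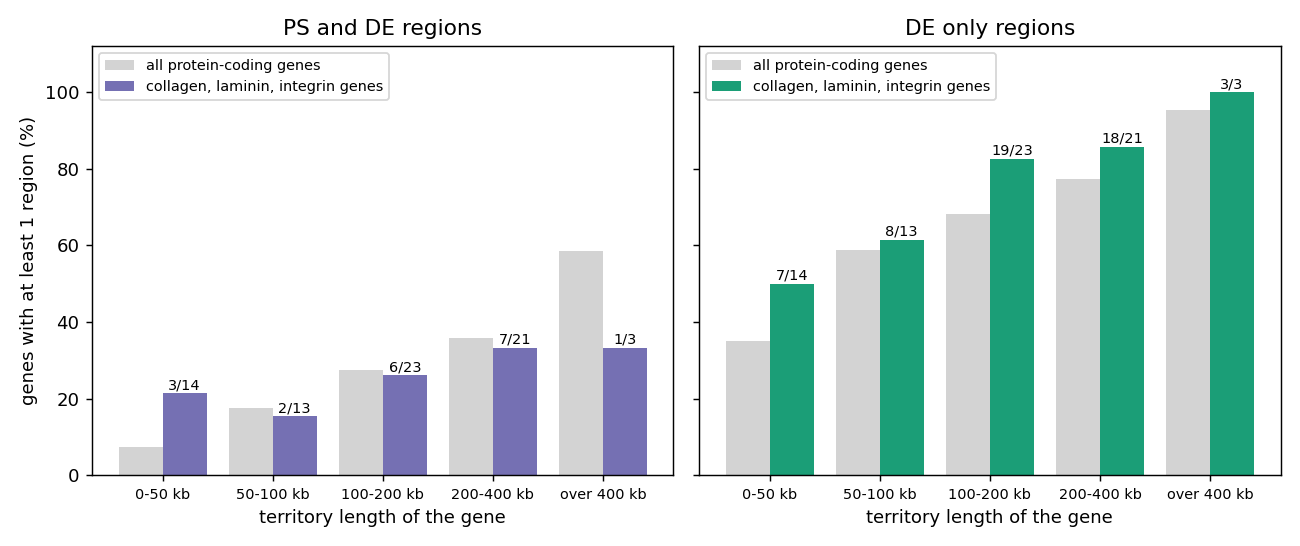
Share of genes with at least 1 region (vertical axis, percent) by length of the gene's territory (horizontal axis, kb), for all protein-coding genes (grey) and for collagen, laminin and integrin genes (coloured, with the number of genes over the class size), PS and DE regions on the left and DE only regions on the right. From 100 to 200 kb, 19 of 23 of these genes had a DE only region, and the share over all genes grows with territory from 35.1% to 95.2%.

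Among genes of like territory, the share with a DE only region was higher than over all genes in each class of length. The margin differed between classes, which hold only 3 to 23 of these genes each. It was 7 of 14 genes (50%) under 50 kb, against 35.1% of all genes of that class. It was 8 of 13 (61.5%, against 58.8%) from 50 to 100 kb, 19 of 23 (82.6%, against 68.2%) from 100 to 200 kb, 18 of 21 (85.7%, against 77.2%) from 200 to 400 kb and 3 of 3 (against 95.2%) above. For PS and DE regions it was above all genes in the shortest class, with 3 of 14 (21.4%, against 7.39%), and below in the other 4 classes. More of these genes were hit at least once, while the number of regions per Mb was not higher. No test was run on these shares.

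**Figure D2:**
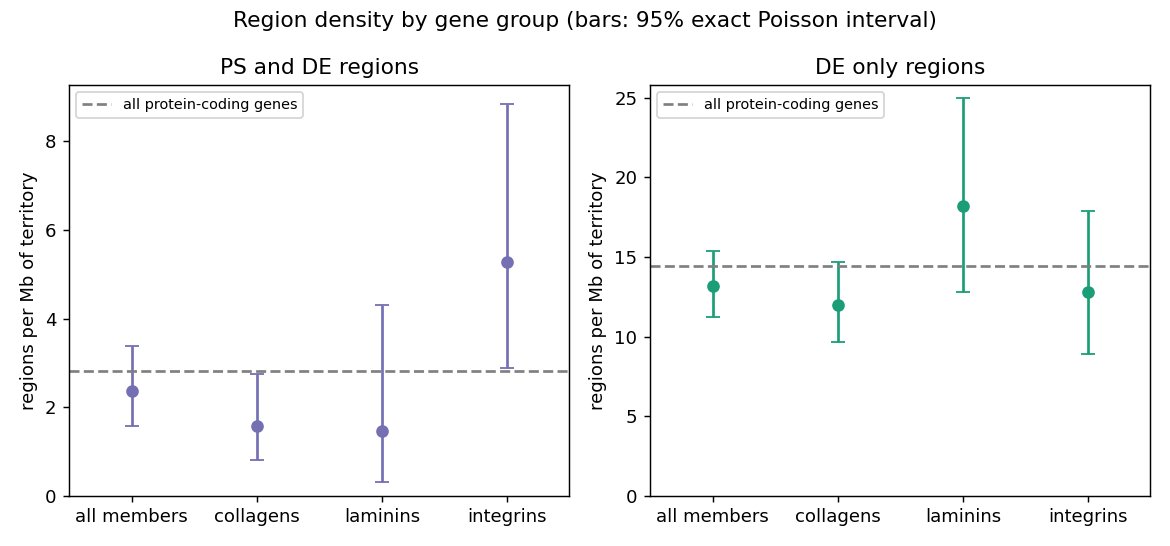
Regions per Mb of territory (vertical axis) for all 74 genes and for the collagens, laminins and integrins, PS and DE regions on the left and DE only regions on the right. Points are densities, bars 95% exact Poisson intervals and dashed lines the density over all protein-coding genes, 2.82 and 14.4; integrins lie above the line for PS and DE, at 5.28, and laminins for DE only, at 18.2.

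Among the gene groups, integrins had the highest density of PS and DE regions and laminins that of DE only regions, and each rested in part on 1 gene. Integrins had 14 PS and DE regions in 2.65 Mb, 5.28 per Mb (95% exact Poisson interval 2.89 to 8.85), against 1.58 (0.815 to 2.75) for collagens and 2.82 over all genes. Without Itga11, the integrin with most of them, the density was 4.04 per Mb (1.94 to 7.44), an interval that includes the value over all genes. Laminins had 37 DE only regions in 2.04 Mb, 18.2 per Mb (12.8 to 25), against 14.4 over all genes, and without Lamc1 14.5 (9.56 to 21.1). Collagens had 12 (9.63 to 14.7) and integrins 12.8 (8.88 to 17.9) DE only regions per Mb. Regions lie in clusters, so these intervals are too narrow, and the differences between groups were not tested.

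**Figure D3:**
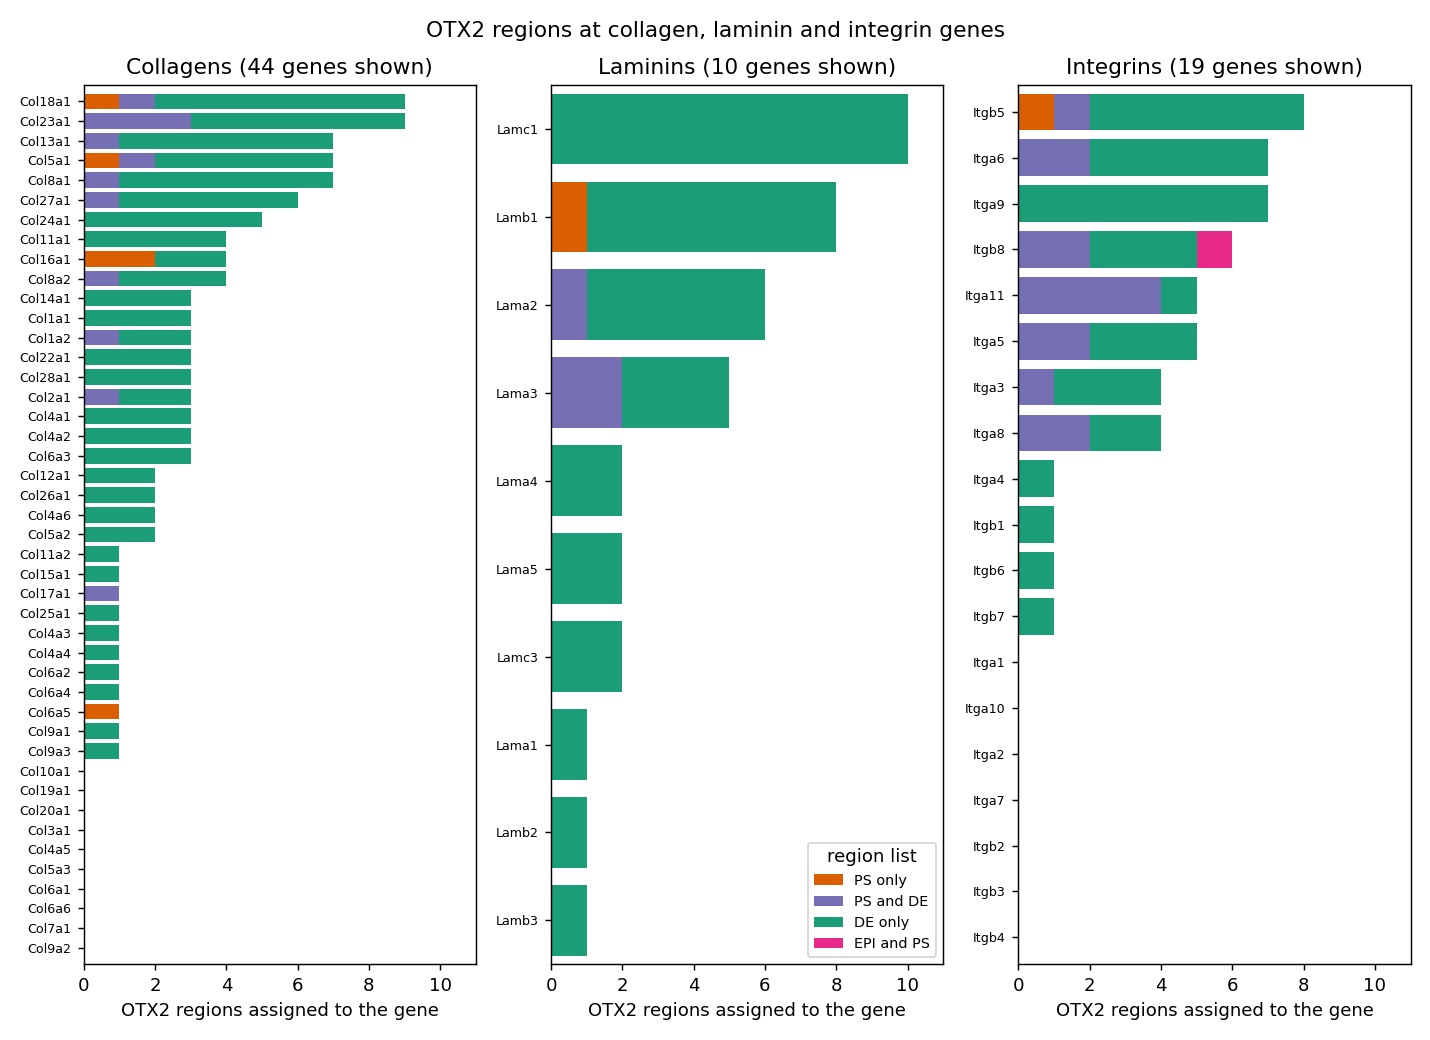
Number of OTX2 regions assigned to each gene (horizontal axis), by region list (colour), for 44 collagens, 10 laminins and 19 integrins. Each of the 10 laminin genes plotted has a DE only region, while 10 collagens and 7 integrins have 0 regions of any list.

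The 10 laminin genes described here each held a DE only region, where 50.1% of all genes did. Laminin territories had a median of 158.1 kb, and of all genes with 100 to 200 kb 68.2% held a DE only region. The gamma chain gene Lamc1 held the most of the 74 genes, with 10, a number that 1.17% of all protein-coding genes reached, and 0 regions of the other lists. The beta chain gene Lamb1 held 7 DE only regions (reached by 3.21% of genes) and 1 PS only region. Both shares are over genes of any length. The territories of Lamc1 and Lamb1 were 176.2 and 158.1 kb, against a median of 45.1 kb over all genes. Lama1, whose chain joins these 2 in the laminin of the early embryo's basement membranes, held 1 DE only region, 11.5 kb outside the gene. The alpha chain gene Lama5 held 2 and Lama2, by far the longest of the laminin genes at 635.9 kb, held 5 together with 1 PS and DE region. Among the others, Lama3, Lama4, Lamc3, Lamb2 and Lamb3 held 1 to 3 DE only regions each, and Lama3 held 2 PS and DE regions.

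At Lamc1 (chromosome 1, 153218922 to 153332786) the regions formed a pair of groups. A group of 4 lay at the higher end of the gene, from 153332148 to 153334094, with gaps of 510, 71 and 712 bp. Another 4 lay from 153356501 to 153360875, 23.8 to 28.0 kb outside the gene. The last 2 lay inside the gene, 35.1 and 41.2 kb from its lower end. The annotation used here gives no strand for Lamc1, so its start and its end could not be told apart.

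At Lamb1 (chromosome 12, 31265146 to 31329644, plus strand) all 8 regions lay upstream of the listed start and 0 lay deeper in the gene. The farthest were a pair of DE only regions at 31175179 to 31175277 and 31175565 to 31175679, 89.9 and 89.5 kb from the gene's end. Another gene, Fam110c, ended 95.3 and 95.7 kb from them, so the assignment of this pair is a matter of the rule. DE only regions followed at 43.5, 35.7, 8.46 and 0.927 kb, and the PS only region (31246079 to 31246349, 271 bp) at 18.9 kb. The nearest DE only region was the one in the promoter printed above, at 31265210 to 31265272. The next gene, Dld, ended 66.3 kb from that region.

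Collagen IV, the network collagen of basement membranes, held DE only regions and 0 of the other lists. Of its 6 genes, 5 held 1 to 3 DE only regions each, 10 in all or 8.62 per Mb, against 14.4 per Mb over all genes. A DE only region was held by 68.2% of all genes with territories of 100 to 200 kb, and the median territory of collagen IV genes was 174.6 kb. Col4a1 and Col4a2, which encode the chains found in nearly all basement membranes, lie head to head on chromosome 8 and overlap at their starts. Each held 3 regions, all inside the span. Col4a1 (11198423 to 11312889, minus strand) had them 3.35, 44.7 and 97.4 kb into the gene, and Col4a2 (11312805 to 11449287, plus strand) 48.2, 80.0 and 81.1 kb into it. None lay within 1 kb of the shared start. Col4a3 and Col4a4 held 1 each, Col4a6 held 2, and Col4a5 held 0.

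Col18a1 and Col23a1 held the most regions among collagens, 9 each, a total reached by 2.92% of all genes, whatever their length. Their territories were 161.5 and 298.6 kb, with 43.3 and 20.1 DE only regions per Mb, against 14.4 over all genes. Col18a1 (chromosome 10, 77052178 to 77166530, minus strand) encodes a basement membrane collagen whose end fragment is endostatin. Of its 7 DE only regions, 6 were spread through the gene. Its other 3 regions, 1 of each list but EPI and PS, lay together upstream: PS and DE at 77193624 to 77193930, PS only at 77197593 to 77197686 and DE only at 77206608 to 77206778, that is 27.2, 31.1 and 40.2 kb from the gene. Col23a1 (chromosome 11, 51289679 to 51583925, plus strand), a transmembrane collagen, held 3 PS and DE regions, a number reached by 1.87% of genes, and 6 DE only regions. All but 1 of its 9 regions lay inside the gene, from 44.3% to 90.3% of the way along it. The exception, at 51288482 to 51288598, lay before the gene.

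Other collagens held regions of several lists in smaller numbers. Col5a1, a fibrillar collagen that starts fibrils, held 5 DE only, 1 PS and DE and 1 PS only region. Col27a1, also fibrillar, held 5 DE only regions and 1 PS and DE region, of which 1 DE only region lay 0.705 kb past the listed start. Col13a1, a transmembrane collagen found at cell junctions, held 6 DE only regions, among them the one across its start, and 1 PS and DE region 42.5 kb into the gene. Col8a1, a short-chain network collagen, held 6 DE only regions and 1 PS and DE region, 6 of these 7 upstream at 68.1 to 95.2 kb from the gene. With the gene's nearest end as the only link at that distance, the assignment of these 6 is a matter of the rule. The fibril-associated Col16a1 held 2 DE only regions, 77.1% and 95.9% of the way along it, and 2 PS only regions at 130045713 to 130045804 and 130046297 to 130046414 on chromosome 4, 2.06 and 1.46 kb before the gene. It was the only one of the 74 genes with more than 1 PS only region. Col6a5 held 1 PS only region and 0 others.

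By class, the 11 fibrillar collagens held 29 DE only regions in 9 genes (15.4 per Mb, against 14.4 over all genes) and 4 PS and DE regions in 4 genes. The 9 fibril-associated collagens held 12 in 6 genes (7.39 per Mb) and the 6 collagen VI genes 5 in 3 genes (6.44 per Mb), both with 0 PS and DE regions. The 4 transmembrane collagens held 13 DE only and 5 PS and DE regions. Col1a1 held 3 DE only regions, Col1a2 held 2 and 1 PS and DE region, and Col3a1, which encodes the chain of another major fibrillar collagen of connective tissue, held 0.

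Among integrins, PS and DE regions were held by 7 of the 19 genes, where 16.3% of all genes held one. Integrin territories had a median of 127.3 kb, and of all genes with 100 to 200 kb 27.5% held one. Itga11, a receptor subunit for fibrillar collagen, held 4, a number reached by 0.781% of all protein-coding genes, and 1 DE only region. That share is over genes of any length, and the territory of Itga11 was 180.4 kb, against a median of 45.1 kb over all genes. On chromosome 9 its gene spans 62677855 to 62783979 on the plus strand. The PS and DE regions lay at 62622089 to 62622197, at 62657332 to 62657450 and 62657516 to 62657598, and at 62732778 to 62732865. The first was 55.7 kb upstream, the middle pair, 65 bp apart, 20.5 and 20.3 kb upstream, and the last 55.0 kb into the gene. An end of another gene, Coro2b, lay 85.1 kb from the first. The other collagen-binding subunits Itga1, Itga2 and Itga10 held 0 regions of any list.

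Receptors of fibronectin and related proteins, which share recognition of an RGD peptide, held 7 PS and DE regions in 4 of 6 genes, with a median territory of 144 kb, where 16.3% of all genes and 27.5% of those with 100 to 200 kb held one. Itga5, the alpha subunit of the main fibronectin receptor (chromosome 15, 103344286 to 103366791, minus strand), had 5 regions in and around a span of 22.5 kb. Its PS and DE regions lay 0.785 kb before the start, at 103367525 to 103367628, and 5.28 kb past it, at 103361439 to 103361584, and a DE only region lay between them, 1.70 kb past the start. Itgb5, which pairs with the alpha V subunit, held 1 PS only, 1 PS and DE and 6 DE only regions. The first 3 along the gene came from 3 lists: PS only at 3.57 kb, DE only at 7.71 kb and PS and DE at 11.2 kb from the start.

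Itgb8, a partner of alpha V that takes part in TGF-beta activation, was the only one of the 74 genes with an EPI and PS region. That region (chromosome 12, 119238139 to 119238284) lies across the listed start of the gene, as printed above. The gene also held 2 PS and DE regions, 30.2 kb upstream of the start and 29.2 kb beyond the other end, and 3 DE only regions, all outside the span. Itga8, another RGD-binding subunit, held 2 PS and DE and 2 DE only regions, all inside the gene.

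Laminin receptors were uneven. Itga6 (chromosome 2, 71786886 to 71858427), the alpha subunit of laminin receptors in epiblast and epithelia, held 5 DE only and 2 PS and DE regions. Itga3 held 3 DE only regions and 1 PS and DE region, the latter 1.97 kb from a listed start. Itga7 and Itgb4 held 0. Itgb1, the beta subunit shared by most of these receptors, held a single DE only region, 68.3 kb upstream. Itga9 held 7 DE only regions and 0 others, and Itga4, Itgb6 and Itgb7 held 1 DE only region each. Itgb2 and Itgb3, subunits of blood cells and platelets, held 0.

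**Figure D4:**
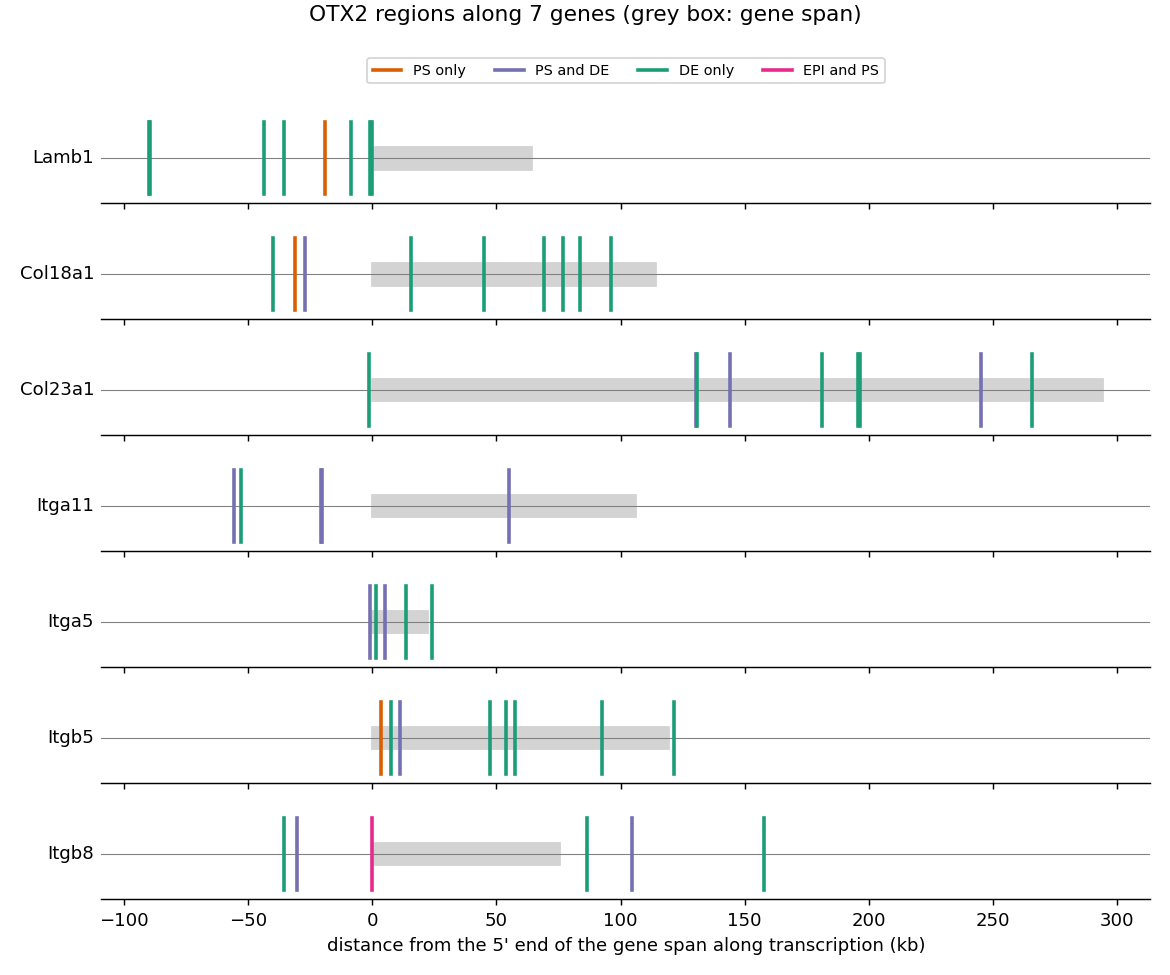
OTX2 regions (vertical lines, coloured by list) along 7 genes, with the span as a grey box and the horizontal axis giving the distance in kb from the 5' end of the span in the direction of transcription. Regions of Lamb1 lie at or before its start, those of Col23a1 mostly from 130 kb onwards, and the EPI and PS region of Itgb8 at its start.

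Regions at these genes lay inside the gene in a larger share, and at gene ends in a smaller share, than regions elsewhere, but per base they were not denser inside. Of the 199 regions, 61.3% (95% Wilson interval 54.4 to 67.8) lay inside the span, against 53.9% of all assigned regions. The spans took 70% of the territory of these genes and 54.1% of that of all genes. Per Mb there were 14.2 regions inside the spans of these genes and 20.9 outside, against 18.1 and 18.2 over all genes. With regions assigned by nearest gene end alone, the share of DE only regions inside was 57.6% (49.6 to 65.2), an interval that includes the 54.4% of all DE only regions as assigned above. A midpoint within 1 kb of any gene end was found for 14 (7.04%, 4.24 to 11.5), against 15.2% of all assigned regions. Long genes have fewer ends per Mb, 12 for these genes against 22.9 over all genes. Per 100 gene ends there were 9.46 such regions at these genes and 12.1 over all genes. Itga5 and Col8a2 supplied both PS and DE regions among the 14, Itgb8 its EPI and PS region, and the other 11 were DE only.

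Where strand was known, regions outside the gene were more often upstream. Of the 149 regions at genes with a listed start, 95 lay inside the span, 42 upstream and 12 downstream. Upstream regions were 77.8% of those outside (95% Wilson interval 65.1 to 86.8), against 62.1% over all genes with a listed start. The upstream side also held more of the territory, 65.4% of the bases outside the spans, and per Mb there were 22.9 regions upstream and 12.3 downstream. Inside the spans, the stretch from 0 to 25% of the way from the start held 22 of 95 regions (23.2%, 15.8 to 32.6), against 35.1% over all genes, and the stretch from 50 to 75% held 33 (34.7%, 25.9 to 44.7), against 21.8%. The shares along the span were not matched for length. With a median span of 102.3 kb against 17.2 kb over all genes, 25% of a span covers more bases here. No test was run on these shares, and regions at 1 gene are not independent. The annotation gives spans only, so exons and introns are not distinguished.

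Neighbourhood and the width of DE only regions were close to those of other regions, while PS and DE regions had a wider median. Of the 162 DE only regions at these genes, 30.2% (95% Wilson interval 23.7 to 37.7) had a PS and DE region within 50 kb, against 34.9% of all assigned DE only regions. Another region of the same gene lay within 5 kb for 33.7% (27.5 to 40.5) of the 199 regions, against 35.1% of all assigned regions. The median width was 113 bp for DE only regions at these genes and 118 bp for all assigned ones, and for PS and DE regions 143 bp against 121 bp.

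The matrix and adhesion genes that work with these families were counted in the same way. A list of 36 partners held matrix proteins (fibronectin, nidogens, perlecan), collagen-processing enzymes and the adaptors that link integrins to the cytoskeleton. DE only regions were assigned to 26 of them (72.2%, against 50.1% of all genes), PS and DE regions to 10 (27.8%, against 16.3%), PS only regions to 8 (22.2%, against 5.60%) and EPI and PS regions to 0 (against 1.45%). Per Mb that is 18.4 DE only regions against 14.4 over all genes, 3.53 PS and DE regions against 2.82, and 2.71 PS only regions (10 in all) against 0.747. The collagen, laminin and integrin genes lay below all genes in each of these, at 13.2, 2.36 and 0.569. Nid2, which encodes a nidogen linking laminin to collagen IV, and Ptk2, which encodes focal adhesion kinase, held 2 PS only, 1 PS and DE and 3 DE only regions each. Parva, an adaptor of the integrin-linked kinase complex, held 1, 1 and 4 in that order, and Sparc, a collagen-binding matrix protein, held 1, 0 and 5. The difference between the partner list and the other genes was not tested.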

How the data were processed

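The submitters' processing notes name MACS2 2.2.6, Bowtie2 2.3.5.1, bedtools 2.30, Picard 2.26.10 and SAMtools 1.14, and the build mm10. Settings and the joining of libraries and stages are not given in the sources used. The authors deposited 4 lists of 3 columns (chromosome, start, end), other data than counts or signal, with starts counted from 0, converted here to count from 1. Gene spans are RefSeq's on GRCm38. A region whose midpoint lay in several spans went to the shortest, and 2 regions on a scaffold were left out. Territories were measured on a grid of 50 bp. Intervals are at 95% (Wilson for shares, exact Poisson for densities). No test was run. Assignment was tested on simulated positions. Genes named with values are the 12 with the most regions (ties included), all with a PS only or EPI and PS region or with 3 or more PS and DE regions, 10 basement membrane and receptor genes taken whatever their counts, and up to 4 partners. Others named beside them were chosen after their values were seen. For 1 laminin gene, counted in all totals, values of its own are not reported here. The genes and lists were chosen with earlier results of these data known. The strand of a sequence was checked on overlapping windows of opposite strands, and 1811 of 1811 gave the same bases. Python 3.11.15, numpy 2.4.6, pandas 2.3.3 and scipy 1.17.1 were used. Alternatives were assignment within 50 or 200 kb, by nearest gene end alone or to the longest span, regions merged within 500 bp, regions of at least 150 bp or no narrower than the median of their list, and a gene-end window of 2.5 kb.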

Additional observations from a re-analysis of the deposited data

How the results depend on the processing

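Of 170 values recomputed under 8 other settings, 147 moved by less than their 95% interval (or, for numbers of regions or genes, less than 1.5 times). Assignment within 50 or 200 kb, by nearest gene end and with merged regions moved 0 values beyond that. Assignment to the longest span could move none, because 0 of the 199 midpoints lay in more than 1 gene span. Its 24 values are among the 147 and say nothing about stability. The values that moved farther came from settings that keep fewer regions or widen a window. With regions of at least 150 bp, the genes held 2 PS only regions (in 2 genes, 0.163 per Mb), 13 PS and DE (10 genes, 1.06 per Mb, 0% within 1 kb of a gene end), 49 DE only (25 genes, 3.98 per Mb) and 0 EPI and PS (0 genes, 0% of assigned regions, 0 per Mb). With regions no narrower than the median of their list, they held 3 PS only (3 genes), 18 PS and DE (1.46 per Mb, 0% within 1 kb of a gene end) and 74 DE only (36 genes, 6.02 per Mb). Both settings drop regions at all genes, and densities over all genes were not recomputed for them. The share of assigned PS and DE regions at these genes was 0.706% (0.413 to 1.2) and 0.678% (0.429 to 1.07) under these settings. Both lie above the 0.644% of territory. The DE only share was 0.542% (0.41 to 0.716) and 0.544% (0.434 to 0.683), below it. These intervals include 0.644%. With a window of 2.5 kb, 13.0% of DE only regions lay at a gene end. Leaving out the gene with the most regions of each group, an alternative added after seeing the data, moved 0 of 8 densities beyond their interval. Depth is unknown, and the lists give no score, so width stood in for a stricter threshold. No paired analysis was possible because the result comes from no test and the lists carry no replicate number.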

Other observations

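Neighbouring regions of 1 gene lay under 1 kb apart in 20 cases, at 12 of the 74 genes, and in 5 of these cases, at 4 genes, the neighbours came from different lists. At Col8a1 a PS and DE region (chromosome 16, 57846467 to 57846573) lay between DE only regions, with gaps of 789 and 262 bp. At Col23a1 a PS and DE region was followed by a DE only region after 247 bp, and at Col2a1, the cartilage collagen, after 262 bp. At Col5a1 a PS only region (chromosome 2, 28053214 to 28053317) was followed by a DE only region after 420 bp. At Col5a1, then, the stages differ in which of 2 adjacent stretches was called. At Col8a1, Col23a1 and Col2a1 the PS and DE stretch was called in both stages, and an adjacent stretch in DE only. The lists hold no signal with which binding at a stretch could be checked in a stage where it was not called.

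Of the 17 genes with 0 assigned regions, 15 had a region of some list within 100 kb of their span that went to another gene. Col3a1 and Itga1 had none of any list within that distance. Regions of stage combinations without a list could not be seen.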
